A study of Mus musculus with 2 samples.

Results

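The cells described here are the microglia that carried transcripts of Cd5l, which encodes CD5 antigen-like protein, also called apoptosis inhibitor of macrophages (AIM). They were taken from 2 single-cell RNA libraries of microglia sorted from the corpus callosum, 1 from its medial and 1 from its lateral portion. A cell barcode was kept when it held at least 2400 unique molecular identifiers (UMIs, each standing for 1 captured transcript), at least 300 genes and at most 10% mitochondrially encoded UMIs. A kept cell with at least 1 Cd5l UMI was counted as a Cd5l cell; the cells were thus selected on their measured Cd5l UMIs. By this rule 343 of 4439 cells were Cd5l cells, 152 of 2131 in the medial and 191 of 2308 in the lateral library. The values of Cd5l itself are therefore given as a description.

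Both libraries came from C57Bl6 mice with the genotype given as CX3CR1, fed cuprizone for 4 weeks, and both were processed uncultured after GentleMACS dissociation and cell sorting. Cuprizone binds copper and is toxic to oligodendrocytes, and so demyelinates the corpus callosum. By their labels the groups differ only in the portion of the tract, but each portion is 1 separate library, so portion and library cannot be told apart. No library from untreated mice was analysed here, and every cell of both groups shares the diet and the genotype. The labels do not give the CX3CR1 allele, the number of mice behind each library or the sorting gate. With 1 library per portion there is no replicate, so no p-value is given, and values in parentheses after an estimate are 95% bounds that cover counting error only.

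AIM is a secreted protein of the scavenger receptor cysteine-rich family, made by tissue macrophages such as Kupffer cells and carried in blood bound to IgM. It is known for prolonging the survival of macrophages loaded with lipid and for entering fat cells through the receptor CD36, where it inhibits fatty acid synthase. Its gene is a target of the oxysterol-sensing liver X receptors (LXR). Microglia clearing myelin take up large amounts of cholesterol, and LXR signalling governs how they export it.

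Cd5l (ENSMUSG00000015854) lies on the plus strand at chr3:87357881-87371073 in GRCm38.

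Most Cd5l cells held a single Cd5l transcript, and a few held very many. In the medial library 114 of the 152 cells had 1 Cd5l UMI, 16 had 2, 15 had 3 to 4, 5 had 5 to 9 and 2 had 10 or more, with 38 in the highest cell. In the lateral library 133 of the 191 cells had 1, 28 had 2, 13 had 3 to 4, 7 had 5 to 9 and 10 had 10 or more, with 52 in the highest. The 22 medial and 30 lateral cells with 3 or more Cd5l UMIs held 48.2% and 64.8% of all Cd5l UMIs of their library. The 10 lateral cells at 10 or more alone held 47.3%.

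Cd5l was found in fewer cells than nearly all genes of like abundance, and none of them had a higher top cell. Among the 992 medial and 1004 lateral genes whose summed UMIs lay within 1.2-fold of Cd5l, the median gene was found in 256 and 453 cells, against 152 and 191 for Cd5l. Only 4 of those genes in the medial library and 1 in the lateral were in fewer cells. None had a cell with more UMIs than the top Cd5l cell.

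The share of cells with Cd5l was 7.13% (6.08 to 8.31, exact Clopper-Pearson) in the medial and 8.28% (7.18 to 9.47) in the lateral library. It followed the depth of the cell: over 5 groups of about equal size ranked by total UMIs, from the shallowest to the deepest, it went from 2.82% to 10.3% in the medial and from 3.46% to 14.1% in the lateral library. Cd5l cells had medians of 13002.5 and 11709 UMIs, and cells without Cd5l 10603 and 9493. When every cell was thinned to 3869 UMIs, which left out 131 medial and 231 lateral cells, the share was 3.65% (2.87 to 4.57) and 3.95% (3.15 to 4.88). A cell without a Cd5l UMI may still express the gene, which was not tested.

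**Figure D1:**
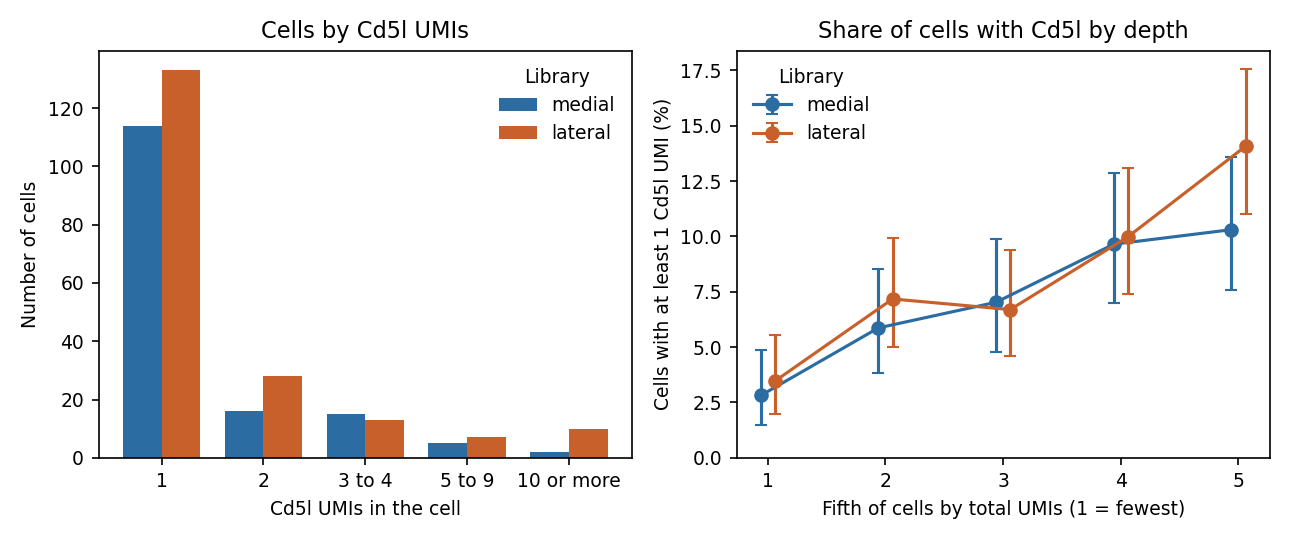
Left, number of cells (vertical axis) by the number of Cd5l UMIs in the cell, for the medial and lateral libraries; right, share of cells with at least 1 Cd5l UMI in 5 groups of cells ranked by total UMIs, with exact 95% intervals. Most Cd5l cells hold 1 UMI, and the share goes from 2.82% and 3.46% in the shallowest group to 10.3% and 14.1% in the deepest.

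Transcripts outside cells were measured in barcodes under 100 UMIs, which hold free RNA. Cd5l stood at 12.8 CPM there (counts per 1000000 UMIs; 56 UMIs) in the medial and 19.2 CPM (80 UMIs) in the lateral library, against 12.03 CPM (10.7 to 13.5) and 23.3 CPM (21.4 to 25.4) in cells. Cells made wholly of such RNA would hold a Cd5l UMI in 12.95% and 17.1% of cases at these depths. Mbp, an oligodendrocyte gene, had a UMI in 11.8% and 11.1% of cells at 11.6 and 12.5 CPM, against 11.02% and 9.91% by the same arithmetic. Cd5l was thus in fewer cells than Mbp at a like or higher level, with more UMIs in the top cells. How many single Cd5l UMIs came from free RNA was not tested, and a share of cells near these values is not read here as a share of expressing cells.

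The summed level of Cd5l was 1.94-fold higher in the lateral than in the medial cells, a log2 medial over lateral ratio of -0.95 (-1.17 to -0.74). Without the cells at 10 or more Cd5l UMIs the levels were 9.69 and 12.3 CPM, a log2 ratio of -0.35 (-0.61 to -0.09). The gap between the portions therefore rested for the most part on 10 lateral and 2 medial cells.

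To compare expression at equal depth, each Cd5l cell was set beside 3 cells of the same library with 0 Cd5l UMIs and the nearest total, 456 medial and 573 lateral matched cells. Median totals were then 13002.5 and 13002 UMIs in the medial and 11709 and 11696 in the lateral library, and median genes per cell 3085.5 against 3100 and 2918 against 2923. UMIs were summed over each set with Cd5l left out. A gene was called higher or lower when the ratio of its CPM in Cd5l cells to that in matched cells was past 1.3-fold in the same direction in both libraries. Of 4153 genes with at least 200 UMIs in each library, 18 (0.433%) were higher and 49 (1.18%) lower; with ratios centred on the median gene the split was 23 and 39. The median log2 ratio over these genes was -0.03 in the medial library and -0.04 in the lateral. Another 3 genes, Cxcl1, Icosl and Cyb561d2, were past the fold in opposite directions, lower in the medial and higher in the lateral Cd5l cells.

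The Cd5l cells were microglia by their markers. All 12 microglial markers were present, with a sum of 148 UMIs per 10000 in Cd5l cells against 144 in matched cells in the medial library and 148 against 150 in the lateral. Tmem119, a microglial surface protein, stood at 569 against 529 CPM and at 525 against 507 CPM. Single markers went both ways: 4 of the 12 had a ratio above 1 in both libraries and 6 under 1, with medians of -0.07 and -0.11. Siglech (2.47-fold and 1.34-fold) and Sall1 (1.37-fold and 1.301-fold) were lower past the fold. Of 12 markers of macrophages of the liver and other tissues, where Cd5l is best known, Timd4, Clec4f, Vsig4, Marco, Cd163, Spic and Adgre4 were at 0 in the Cd5l cells of both libraries. The summed level of that list was 1.15 against 1.33 UMIs per 10000 in the medial and 1.201 against 1.193 in the lateral library. Of 12 monocyte markers 6 medial and 7 lateral were at 0, Ly6c2 among them, and Ccr2 had 3 and 1 UMIs over all Cd5l cells. Of 12 T or NK cell markers 11 were at 0 in the Cd5l cells of each library, and of 12 oligodendrocyte markers 8 and 6. The oligodendrocyte sum was 0.76 against 0.77 UMIs per 10000 in the medial library. In the lateral it was higher in Cd5l cells, at 0.88 against 0.70 (log2 ratio 0.34, 0.096 to 0.577).

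Markers of border macrophages, which line the meninges and vessels, were low, but their summed level stood above that of the matched cells. Only 2 of the 12 had enough UMIs for a call, with 0 past the fold: 1 had a ratio above 1 in both libraries and 1 went in opposite directions. The sum of the list was 2.29 against 1.52 UMIs per 10000 in the medial and 1.96 against 1.45 in the lateral library. In the Cd5l cells of each library 6 of the 12 were at 0, Cd163 and Lyve1 in both. Mrc1, a defining marker, had 1.02 and 0.431 CPM. Ms4a7, chosen after its values were seen and under the 200 UMIs needed for a call, was at 44.4 against 17.0 CPM (log2 ratio 1.38, 0.95 to 1.81) and at 40.5 against 12.1 CPM (1.74, 1.303 to 2.19). Most of the list's difference was that 1 gene together with Stab1 and Pf4. What these markers contribute to the differences below was not tested.

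Spp1, Gpnmb, Lgals3 and Igf1, all of the disease-associated microglia list, were among the 18 higher genes. Spp1, on chr5:104435118-104441050, encodes osteopontin, a secreted phosphoprotein made by microglia in damaged white matter. It stood at 8555 CPM in Cd5l cells and 4259 CPM in matched cells of the medial library, and at 10434 against 5738 CPM in the lateral, 2.01-fold and 1.82-fold higher. Per cell the median was 47.7 UMIs per 10000 in medial Cd5l cells against 10.9 in matched cells, and 37.0 against 13.5 in the lateral library. The cells overlapped, with an upper quartile of 36.2 and 44.8 UMIs per 10000 in matched cells. Free RNA held Spp1 at 5039 and 6183 CPM, under the level of the Cd5l cells and above that of the matched cells of each library. In Spp1 10.7% of 57-base windows, the length of the reads, also occur in another gene.

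Gpnmb, a transmembrane glycoprotein of lysosomes and melanosomes, was at 1125 against 479 CPM in the medial and 762 against 445 CPM in the lateral library, 2.35-fold and 1.71-fold higher. It had a UMI in 92.8% of medial and 80.1% of lateral Cd5l cells, against 79.8% and 66.5% of matched cells. Lgals3, which encodes galectin-3, a lectin that binds damaged lysosomes and apoptotic debris, was 1.42-fold and 1.38-fold higher. Igf1, a growth factor that acts on oligodendrocyte progenitors, was 1.42-fold and 1.36-fold higher, at 581 against 408 CPM and 685 against 504 CPM. These 4 were the only members of that list past the fold upward.

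The rest of the list was mixed. Of its 29 measured genes 4 were higher, 3 lower (Ank, Ccl6 and Ch25h) and 22 neither, with a median log2 ratio of 0.05 and 0.04. Its summed UMIs were higher, at 1438 against 1256 per 10000 in the medial and 1465 against 1274 in the lateral library. Those are log2 ratios of 0.20 and 0.20, and most of the difference was that of Apoe and Spp1. With 1, 2 and 3 or more Cd5l UMIs the list sum was at 1425, 1389 and 1561 in medial cells. In lateral cells it was at 1384, 1520 and 1750. Apoe, the cholesterol carrier of the brain, had a log2 ratio of 0.22 (0.21 to 0.23) and 0.29 (0.29 to 0.30), under the fold, at 51855 against 44404 CPM and 49602 against 40431 CPM. Lpl, the lipase that frees fatty acids from lipoproteins, stood at 719 against 786 CPM and at 912 against 893 CPM. Trem2, the lipid-sensing receptor upstream of this programme, differed by 0.05 and 0.04 on the log2 scale. Itgax, which encodes CD11c, was too sparse for a call, at 20.4 against 35.2 CPM and 22.8 against 19.3 CPM.

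Wfdc17 had the ratio farthest from 1 among the genes higher in both libraries, judged by the nearer interval bound. It encodes a small secreted protein with a whey acidic protein domain, known from activated macrophages. Its level was 413 against 205 CPM in the medial and 549 against 234 CPM in the lateral library, 2.01-fold and 2.35-fold higher. Median levels per cell were 2.17 against 0.98 UMIs per 10000 and 2.44 against 0.92.

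Of the 6 chemokine genes lower in both libraries, 5 lie near Wfdc17 on chromosome 11, and Ccl12 lies farther off at chr11:82101845-82103400. Wfdc17 is at chr11:83703991-83706268, Ccl4 at chr11:83662584-83664683, Ccl3 at chr11:83647844-83649355, Ccl6 at chr11:83587882-83593087 and Ccl9 at chr11:83572919-83578636. Ccl5 is at chr11:83525778-83530518. Coordinates are those of GENCODE vM21 on GRCm38.

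Ms4a6c, Ms4a6d and Ms4a6b, neighbours on chromosome 19 that encode membrane proteins with 4 spans, were each higher in both libraries. Ms4a6c was at 201 against 112 CPM in the medial and 178 against 107 CPM in the lateral library, 1.79-fold and 1.67-fold higher. Ms4a6d was 1.47-fold and 1.51-fold higher. Ms4a6b, named after its values were seen, was 1.69-fold and 1.40-fold higher. They lie between chr19:11469366-11482192, the span of Ms4a6c, and chr19:11586604-11604849, the span of Ms4a6d, with Ms4a7 at chr19:11321039-11336146. In Ms4a6c 7.47% of 57-base windows also occur in another gene, so part of its reads may be assigned to a relative.

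Scavenger and other receptors gave a mixed picture. Msr1, scavenger receptor A of macrophages, which takes up modified lipoproteins, was at 53.1 against 27.2 CPM and 49.5 against 32.8 CPM, 1.95-fold and 1.51-fold higher. It was the only 1 of 9 measured scavenger receptors past the fold, and the list median was 0.08 in the medial library and -0.02 in the lateral. Stab1, which clears modified lipoproteins and apoptotic cells, was higher past the fold in the medial library (125 against 79.7 CPM) and not in the lateral (108 against 88.8 CPM). Cd36, the receptor through which AIM enters cells, was sparse, with a UMI in 3 of 152 medial and 8 of 191 lateral Cd5l cells, against 32 of 456 and 27 of 573 matched cells.

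Further genes higher in both libraries were Gyg, which encodes glycogenin, the primer of glycogen synthesis (1.54-fold and 1.47-fold), and Rgs1, a regulator of chemokine receptor signalling (1.44-fold and 1.40-fold). Serpinb6a, an intracellular protease inhibitor, was 2.08-fold and 1.49-fold higher, and Rap2a, a small GTPase, 1.48-fold and 1.40-fold. The lysosome list leaned upward without a gene past the fold: 19 of its 28 measured genes had a ratio above 1 in both libraries and 3 below, with medians of 0.13 and 0.07. Cd68, a lysosomal membrane glycoprotein of phagocytes, was at 1529 against 1204 CPM and 1568 against 1411 CPM. Ctsd, the lysosomal protease cathepsin D, was at 32442 against 29786 CPM and 30853 against 28956 CPM.

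**Figure D2:**
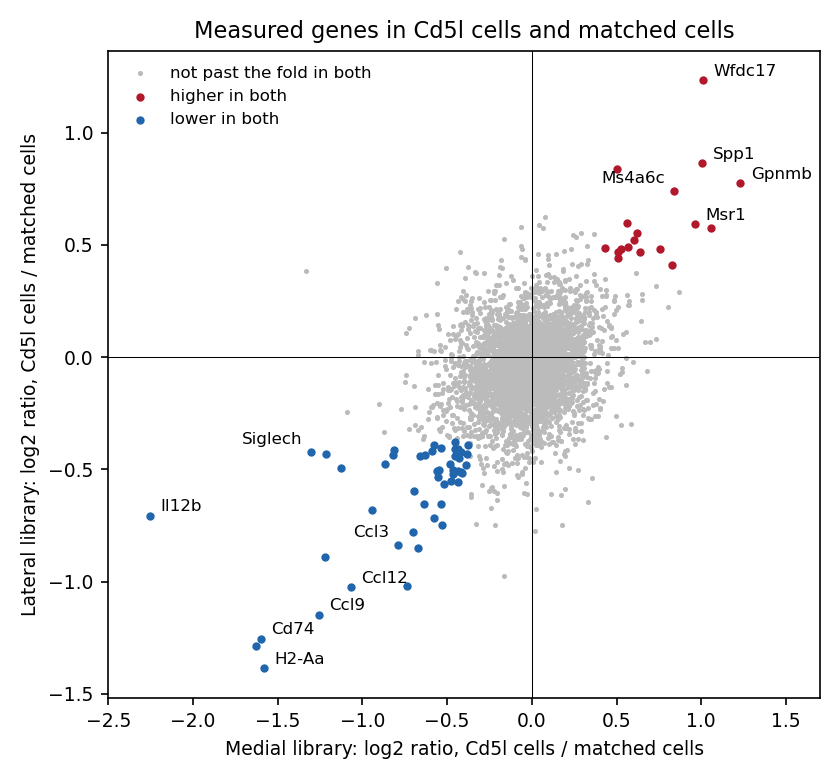
Log2 ratio of each of the 4153 measured genes in Cd5l cells over matched cells, medial library on the horizontal and lateral library on the vertical axis; colours mark the 18 genes higher and the 49 lower past 1.3-fold in both. Spp1, Gpnmb and Wfdc17 lie at the upper right and Cd74, H2-Aa, Ccl9 and Ccl12 at the lower left.

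MHC class II genes, whose products show peptides to CD4 T cells, were the lowest of the 24 lists of pathways and programmes. All 6 measured members had a ratio under 1 in both libraries, 4 were past the fold downward, and the medians were -1.40 and -1.07. Cd74, the invariant chain that guides class II molecules to the endosome, stood at 207 CPM in Cd5l cells against 626 in matched cells of the medial library and at 209 against 498 in the lateral, 3.03-fold and 2.38-fold lower. H2-Aa, an alpha chain, was 2.997-fold and 2.61-fold lower, H2-Eb1, a beta chain, 3.10-fold and 2.44-fold, and H2-Ab1, another beta chain, 2.33-fold and 1.85-fold. In the 38 medial cells with at least 2 Cd5l UMIs the log2 ratio of H2-Eb1 was 0.079, so its direction did not hold there. H2-DMa, which loads peptide onto class II molecules, was under the fold at 190 against 225 CPM and 232 against 259 CPM.

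The class II difference was larger among the highest cells than at the median. The median class II sum was 4.58 UMIs per 10000 in medial Cd5l cells against 5.31 in matched cells, and 4.74 against 5.64 in the lateral library. At the 95th percentile it was 13.9 against 48.8 and 17.4 against 41.5. The highest cells were at 199 against 648 and 88.8 against 543, but there were 3 matched cells per Cd5l cell, so these maxima are not like for like. MHC class I genes, found on most cells, had 0 of 13 members past the fold and medians of -0.05 and 0.03.

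Chemokines and cytokines were lower as a group. The cytokine and NF-kB list had 29 measured genes, of which 25 had a ratio under 1 in both libraries and 0 above 1 in both, 8 were past the fold downward and 0 upward, and the medians were -0.45 and -0.27. Ccl9 was at 67.9 against 162 CPM in the medial and 67.2 against 149 CPM in the lateral library, 2.39-fold and 2.21-fold lower. Ccl12, which attracts monocytes through CCR2, was at 117 against 246 CPM and 106 against 216 CPM, 2.10-fold and 2.03-fold lower.

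Ccl3 and Ccl4, which attract monocytes and lymphocytes, behaved alike. Ccl3 was at 650 against 1126 CPM in the medial and 450 against 804 CPM in the lateral library, 1.73-fold and 1.79-fold lower. Ccl4 was at 1267 against 2017 CPM and 779 against 1404 CPM, 1.59-fold and 1.80-fold lower. Nearly all cells of each kind held a Ccl4 transcript: 95.4% and 85.9% of Cd5l cells against 97.1% and 88.1% of matched cells. Ccl5, which attracts T cells, was 1.55-fold and 1.35-fold lower, and its medial direction turned under 4 alternatives, with a log2 ratio of 0.17 to 1.69. Ccl6, Il1rn and Il12b, named after their values were seen, were 2.32-fold, 1.92-fold and 4.76-fold lower in the medial and 1.35-fold, 1.60-fold and 1.63-fold lower in the lateral library. Il1b, the inflammatory cytokine interleukin 1 beta, differed little, with log2 ratios of -0.13 and -0.12.

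Homeostatic genes of resting microglia leaned downward. Of 25 measured, 19 had a ratio under 1 in both libraries, 3 above 1, and 4 were past the fold downward, with medians of -0.22 and -0.19. Siglech, a sialic acid-binding lectin of microglia, was 2.47-fold and 1.34-fold lower, and Crybb1, a crystallin gene expressed by microglia, 1.63-fold and 1.71-fold lower. Sall1, a transcription factor that maintains microglial identity, was 1.37-fold and 1.301-fold lower, but its level was low, at 24.5 against 33.5 CPM and 28.0 against 36.4 CPM, and its intervals reached a ratio of 1. Rhob, a small GTPase, was 1.35-fold and 1.33-fold lower. Outside the list, Cd34, a surface sialomucin, was 1.56-fold and 1.57-fold lower and Ank, a pyrophosphate transporter, 1.48-fold and 1.42-fold.

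P2ry12, the receptor with which resting microglia sense nucleotides, was past the fold in the medial library only, at 306 against 430 CPM, and at 342 against 438 CPM in the lateral. Cx3cr1, the fractalkine receptor, stood at 370 against 347 CPM and 330 against 351 CPM. Csf1r, the receptor for the survival factors CSF1 and IL-34, was under the fold at 933 against 1041 CPM and 883 against 1000.2 CPM. Immediate early genes respond within minutes and also to tissue dissociation. Of 23 measured, 20 had a ratio under 1 in both libraries and 1 was past the fold (Rhob). Their medians were -0.17 and -0.18, beside -0.03 and -0.04 over all measured genes.

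Few genes tied to the regulation and action of AIM were past the fold. Of 20 measured macrophage transcription factors 0 were higher and 2 lower, Sall1 and Ppard, with medians of -0.10 and -0.09. In the LXR list 0 of 18 measured genes were higher and 2 lower, with medians of -0.03 and 0.02. Its summed UMIs were higher, at 563 against 489 per 10000 in the medial and 541 against 449 in the lateral library. Those are log2 ratios of 0.20 and 0.27, and about all of the difference was that of Apoe. Apoe gave 101580 of the 110220 list UMIs in medial and 115202 of the 125590 in lateral Cd5l cells. In matched cells it gave 260896 of 287336 and 280909 of 311880. With 1, 2 and 3 or more Cd5l UMIs the list sum was at 561, 532 and 598 in medial cells. In lateral cells it was at 504, 580 and 658. Apoc1, an apolipoprotein gene beside Apoe, was 1.49-fold and 1.65-fold lower (medial log2 ratio 0.60 in the 22 cells with at least 3 Cd5l UMIs), and Ch25h, which makes the LXR ligand 25-hydroxycholesterol, 1.37-fold and 1.36-fold lower. Abca1, the cholesterol exporter and an LXR target, was at 230 against 213 CPM and 202 against 188 CPM. Nr1h3, which encodes LXR alpha, had too few UMIs for a call, at 1.02 against 1.36 CPM and 0.86 against 1.15 CPM.

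Lipid uptake and droplet genes had 0 of 12 measured members past the fold, and Fabp5, a fatty acid carrier, was the highest at 592 against 495 CPM and 688 against 563 CPM. Fasn, the synthase that AIM inhibits, was at 8.68 against 9.53 CPM and 3.88 against 8.35 CPM and had too few UMIs for a call. Of 3 measured fatty acid and cholesterol synthesis genes 1 was lower, Insig1, at 1.39-fold and 1.47-fold, and the list medians were -0.14 and -0.21. Of 15 measured apoptosis regulators 1 was lower, Birc3, an inhibitor of apoptosis in the NF-kB pathway, at 1.51-fold and 1.34-fold. Autophagy genes had 0 of 10 past the fold.

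The measured neighbours of Cd5l on chromosome 3 showed no common direction. Fcrls, at chr3:87250758-87263738, an Fc receptor-like gene of microglia, was at 1920 against 1685 CPM and 2259 against 2023 CPM, under the fold in both libraries. Etv3, at chr3:87525407-87540156, a transcriptional repressor, was at 38.8 against 64.2 CPM and 38.7 against 48.4 CPM. The other listed neighbours were too sparse for a call.

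Division and interferon genes did not set the Cd5l cells apart at this fold. S phase genes had 0 of 9 and G2 and M phase genes 0 of 13 members past it. Mki67, a marker of dividing cells, was at 27.1 against 35.6 CPM and 45.6 against 38.4 CPM. Of 17 interferon response genes 1 was lower, Isg15, a ubiquitin-like protein induced by interferon, at 1.35-fold and 1.42-fold. Mitochondrially encoded genes had a lower ratio in 10 of 11, with 0 past the fold, and median mitochondrial shares per cell were 1.95% against 2.25% and 2.28% against 2.40%.

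**Figure D3:**
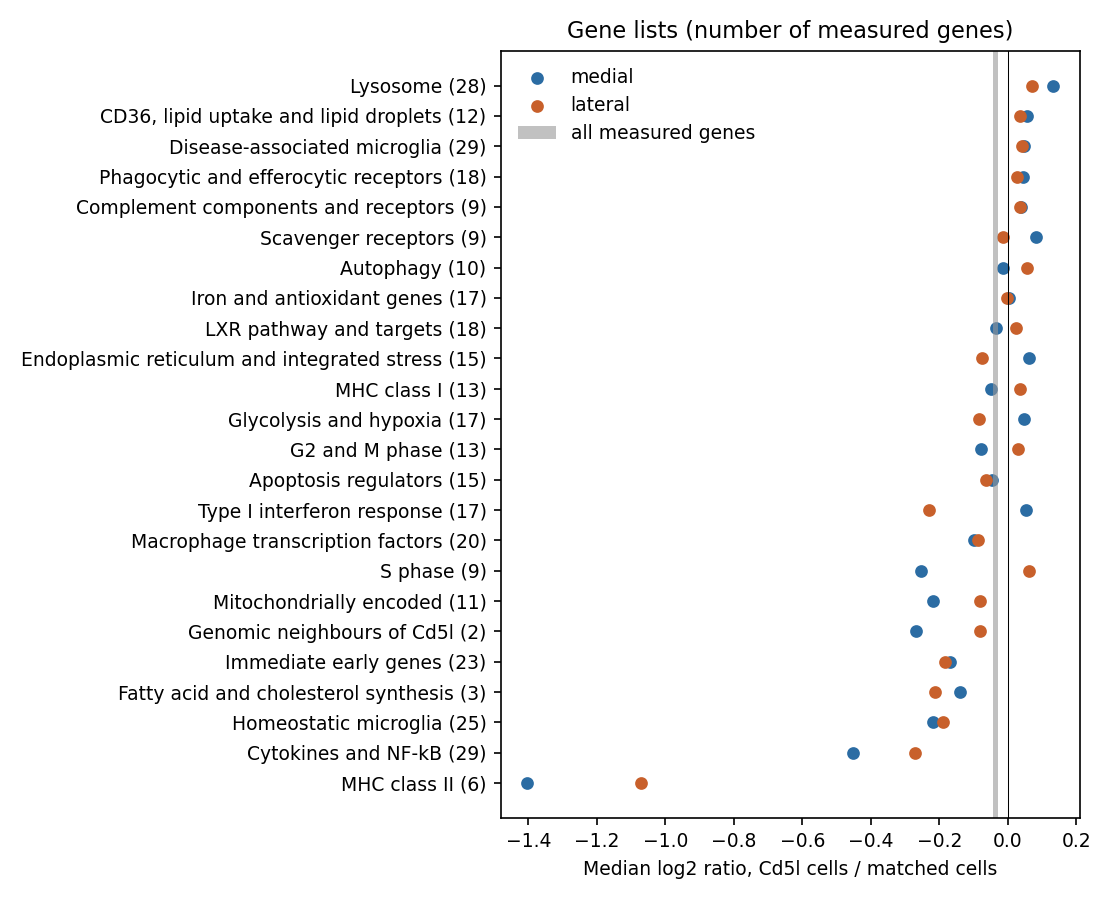
Median log2 ratio of Cd5l cells over matched cells for each gene list, with the number of measured genes in brackets; points are the medial and lateral libraries and the grey band spans the medians of all measured genes. MHC class II lies at -1.40 and -1.07 and the cytokine list at -0.45 and -0.27, while the lysosome list is highest at 0.13 and 0.07.

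Spp1, Gpnmb, Ms4a6c and Lgals3 were highest in the cells with 3 or more Cd5l UMIs in both libraries, as was Wfdc17. Spp1 was at 7598 CPM in medial cells with 1 Cd5l UMI, 6801 with 2 and 15667 with 3 or more, and at 7577, 13685 and 19193 CPM in the lateral library. Wfdc17 in lateral cells was at 355, 623 and 1295 CPM, and in medial cells at 401, 271 and 613 CPM. The step from 1 to 2 was not upward for Spp1 and Wfdc17 in the medial library, where 16 cells held 2 Cd5l UMIs.

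Gpnmb was at 982, 1425 and 1690 CPM in medial and 643, 944 and 1081 CPM in lateral cells. Ms4a6c was at 182, 186 and 318 CPM and at 135, 242 and 294 CPM. Lgals3, at 376, 466 and 550 CPM and 402, 450 and 755 CPM, showed the same order in both libraries. Ms4a7 was at 98.3 CPM in medial and 96.4 CPM in lateral cells with 3 or more Cd5l UMIs.

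Of the genes lower in Cd5l cells, P2ry12 and Cd74 were lowest in the cells with 3 or more Cd5l UMIs in both libraries. Ccl5 and Apoc1 turned upward there in the medial library, with log2 ratios of 1.69 and 0.60 over 66 cells matched to those 22 cells alone. The other matched values here are from the cells matched to all Cd5l cells, not to each level. Median totals with 1, 2 and 3 or more Cd5l UMIs were 13263.5, 14056 and 10777.5 UMIs in the medial library. They were 11096, 13173.5 and 11818.5 in the lateral. P2ry12 was at 337, 280 and 149 CPM in medial and 384, 290 and 217 CPM in lateral cells with 1, 2 and 3 or more Cd5l UMIs, against 430 and 438 CPM in matched cells. Cd74 was at 74.7 and 104 CPM with 3 or more, against 626 and 498 CPM in matched cells. Ccl6 was at 321, 257 and 126 CPM in the medial library. In the lateral library it was at 795 CPM with 1 Cd5l UMI, beside 798 CPM in matched cells, and at 160 and 169 CPM with 2 and with 3 or more.

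Csf1r stood at 711 and 666 CPM with 3 or more Cd5l UMIs, against 1041 and 1000.2 CPM in matched cells. Border macrophage markers were at 3.54 and 3.16 UMIs per 10000 in cells with 3 or more Cd5l UMIs, against 1.52 and 1.45 in matched cells. The markers of liver and other tissue macrophages were at 0.86 and 1.53, against 1.33 and 1.19 in matched cells.

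**Figure D4:**
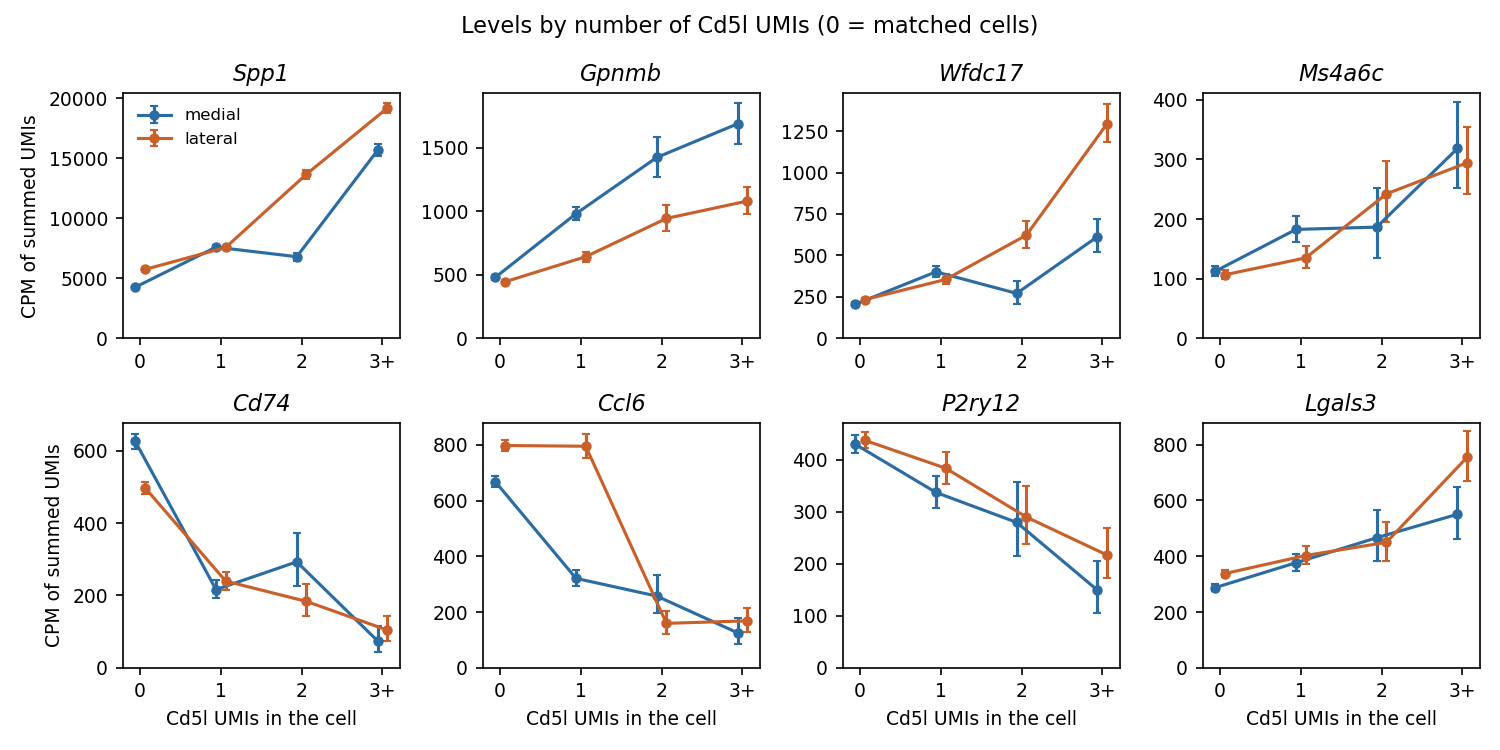
CPM of summed UMIs for 8 genes, by Cd5l UMIs in the cell (0 stands for the cells matched to all Cd5l cells), in the medial and lateral libraries, with exact Poisson 95% intervals. Spp1 reaches 15667 and 19193 CPM and Cd74 74.7 and 104 CPM at 3 or more Cd5l UMIs, while Lgals3 reaches 550 and 755 CPM.

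The 12 cells with 10 or more Cd5l UMIs had totals between 8072 and 17386 UMIs, within the range of the other cells. The highest lateral cell held 52 Cd5l UMIs of 8646, with 456 Spp1, 35 Wfdc17, 21 Fcrls, 0 Gpnmb and 0 Cx3cr1 UMIs. The highest medial cell held 38 of 9773, with 167 Spp1, 20 Wfdc17, 18 Fcrls, 12 Gpnmb and 3 Cx3cr1 UMIs. These cells were not alike. Over the 10 lateral cells Spp1 ranged from 43 to 488 UMIs and Gpnmb from 0 to 26, with medians of 125.5 and 5. Mrc1, Timd4, Clec4f, Vsig4, Marco and Ccr2 were at 0 in all 12, and Ms4a7 was found in 9.

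Cells of both libraries were clustered together without Cd5l, which gave 9 clusters, called here by their leading genes. Cluster 3, led by Gpnmb, Rgs2, Wfdc17 and Spp1, had the highest share of Cd5l cells, 13.8% (9.79 to 18.6) in the medial and 13.9% (10.8 to 17.5) in the lateral library. It held 23.03% and 31.9% of Cd5l cells against 10.3% and 16.4% of matched cells, and 9 of the 22 medial and 16 of the 30 lateral cells with 3 or more Cd5l UMIs. Cluster 4, led by H2-Eb1, H2-Aa and Cd74, had 2.46% (1.23 to 4.36) and 2.92% (1.18 to 5.92) of cells with Cd5l, and held 7.24% and 3.66% of Cd5l cells against 23.03% and 11.3% of matched cells. Cluster 4 cells had median totals of 9731 and 9457 UMIs, and those of cluster 3 10191.5 and 9707; the shares were not compared at matched depth.

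Cd5l cells were found in all 9 clusters. The cycling clusters 6 to 8 had shares between 3.49% and 10.1%, and cluster 1, led by Fn1, Hilpda and Cd14, had 7.92% and 11.7%. Cluster 2, which had the shallowest cells with medians of 6866.5 and 5155 UMIs, had 6.04% and 4.53%.

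**Figure D5:**
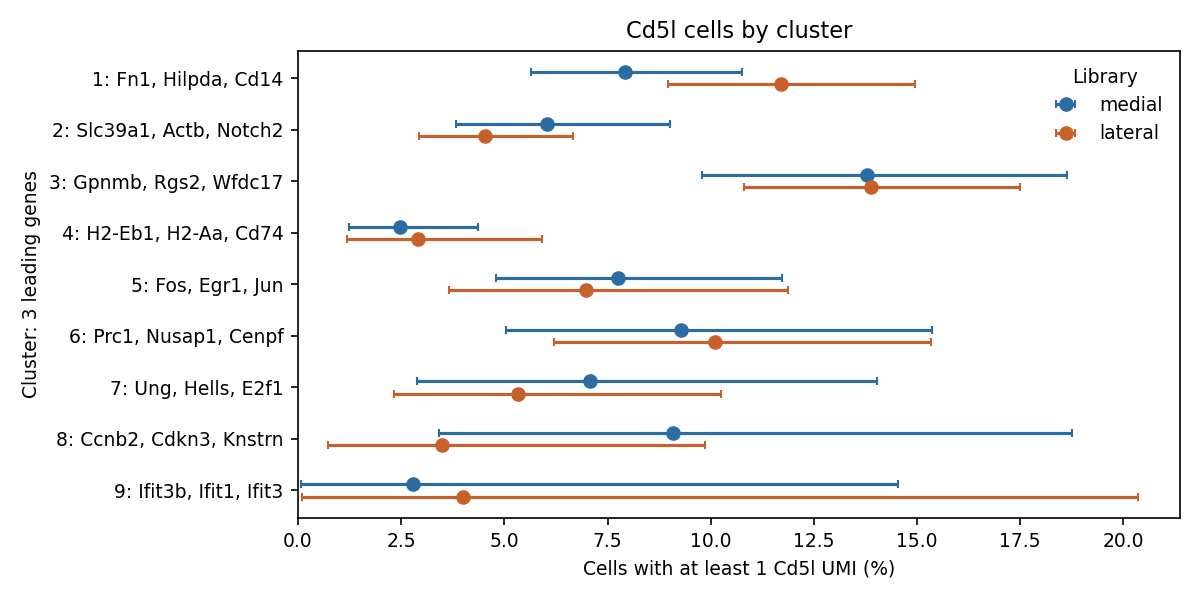
Share of cells with at least 1 Cd5l UMI in each of the 9 clusters, with exact 95% intervals, for the medial and lateral libraries; clusters are labelled by their 3 leading genes. Cluster 3 lies at 13.8% and 13.9% and cluster 4 at 2.46% and 2.92%.

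When matched cells were drawn from the same cluster as each Cd5l cell, an alternative added after the data were seen, 18 genes were higher and 22 lower, of which 13 and 19 were among the 18 and 49. Spp1 kept log2 ratios of 1.03 and 0.77, Wfdc17 of 0.99 and 1.27, Gpnmb of 0.84 and 0.58, and Msr1 of 0.87 and 0.60. Ccl9 stood at -0.97 and -0.99, Ccl12 at -0.79 and -0.66 and Ccl3 at -0.57 and -0.62. Ccl4 moved from -0.67 and -0.85 to -0.40 and -0.46, Ccl5 to 0.17 and -0.06, and the medians of the cytokine and NF-kB list from -0.45 and -0.27 to -0.23 and -0.08. Cd74 moved from -1.60 and -1.25 to -0.36 and -0.44, and the medians of the MHC class II list from -1.40 and -1.07 to -0.26 and -0.30. The clusters were formed from these genes among others, and cluster 4 is led by class II genes.

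Between the portions, the contrast of Cd5l cells with matched cells was in the same direction for the 18 higher and 49 lower genes by the rule that called them, but its size differed for some. Gpnmb was 2.35-fold higher in the medial and 1.71-fold in the lateral library, with intervals of the log2 ratio of 1.15 to 1.31 and 0.69 to 0.86. Ccl6 was 2.32-fold lower in the medial and 1.35-fold in the lateral library, and Siglech 2.47-fold and 1.34-fold. Wfdc17 had overlapping intervals, 0.88 to 1.14 and 1.13 to 1.34. With 1 library per portion these differences were not tested.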

How the data were processed

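The authors deposited raw counts, whole numbers of UMIs per gene and barcode with no normalisation, for 27998 genes and 737280 barcodes in each of 2 libraries. The submitters' processing notes name the tools Cell Ranger 2.0.1 and STAR and the build mm10; no annotation version is given there. Library totals were 28660496 UMIs (medial) and 27955414 (lateral), of which 81.8% and 82.4% lay in kept cells, with medians of 10732 and 9694 UMIs per cell. Symbols carried by several gene IDs were summed.

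The members and gene lists were chosen with earlier results of these data known. Scrublet (scanpy 1.11.5, expected rate 0.05) marked 5 barcodes per library, 1 of them a medial Cd5l cell; they were kept in the main values. The libraries shared 7 cell barcodes, none of them Cd5l cells in both. Each Cd5l cell, deepest first, took the 3 nearest totals without replacement; 0 medial and 4 lateral pairs differed by over 5%. Ratios have exact conditional binomial intervals, CPM exact Poisson ones; UMI intervals cover counting error only. The ratio script was tested on simulated data. Cells were clustered on counts per 10000, 2000 variable genes, 30 components, 15 neighbours and Leiden resolution 0.6.

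Named genes were a fixed set of genes tied to Cd5l and to microglia, the 12 higher and 12 lower genes past the fold whose interval bound nearest a ratio of 1 lay farthest from it, and from each list the 2 highest, the 2 lowest and the most abundant. This took 130 genes, and 16 were added after values were seen. Alternatives varied the cell filter, the Cd5l minimum, the matching, the fold, the count minimum, the weighting of cells and the centring. Some genes are not reported here.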

Additional observations from a re-analysis of the deposited data

Results flagged for a closer look

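Hspa5, an endoplasmic reticulum chaperone, went in opposite directions in the Cd5l cells of the 2 libraries: the log2 ratio over matched cells was 0.26 in the medial library (1400 against 1168 CPM) and -0.083 in the lateral (1163 against 1232 CPM), with counting intervals that left out 0 in both. The difference was not tested, since each portion has 1 library.

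Cd5l was also present in barcodes that held no called cell. In barcodes of 100 to 2399 UMIs it stood at 19.2 CPM in the medial library (16 UMIs) and 31.0 CPM in the lateral (23 UMIs). In barcodes under 100 UMIs it stood at 12.8 CPM and 19.2 CPM. There were no control samples to set these levels against.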

How the results depend on the processing

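With at least 2 Cd5l UMIs the share of cells was 1.78% medial and 2.51% lateral, and after thinning to 3869 UMIs 3.65% and 3.95%; other cell filters moved it by less than its interval. Against 18 higher and 49 lower genes, a fold of 1.2 gave 50 and 124 and a fold of 1.5 gave 5 and 14. A minimum of 50 UMIs gave 80 and 190, and 500 UMIs gave 11 and 19. Taking 1 matched cell per Cd5l cell gave 11 and 14 (of 2432 measured), counting each cell alike 28 and 69, and matching within the same cluster 18 and 22. Cells with at least 2 Cd5l UMIs gave 16 and 53 of 1306 measured genes, and with at least 3, 18 and 50 of 681. Centring on the median gene gave 23 and 39, which moved the split between higher and lower from 18 and 49.

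Of 41 named genes past the fold, 38 to 41 kept their direction in both libraries under each alternative; 23 stayed past the fold in both with matching within the same cluster, 28 with 1 matched cell, and 34 to 40 under the others. Reversed medial log2 ratios were Ccl5 at 0.46 (1 matched cell), 0.98 (at least 2 Cd5l UMIs), 1.69 (at least 3) and 0.17 (same cluster), H2-Eb1 at 0.079 (at least 2), Apoc1 at 0.60 and Ppard at 0.0024 (both at least 3). The cause was not tested. With Il12b at 0 UMIs in the Cd5l cells at 2 or more (lateral) and 3 or more (both libraries), and Slc7a11 at 3 or more (medial), no ratio could be given. Both genes are among those counted as keeping their direction. No paired analysis was possible because each group has 1 library. Few cells with several Cd5l UMIs, 38 medial and 58 lateral at 2 or more, limit the precision.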
